A study of Sus scrofa with 10 samples.

Results

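The heat shock proteins and J-domain chaperones were followed across 9 pig tissues. The group was taken by gene symbol: every gene whose pig symbol begins with HSPA, HSPB, HSPD, HSPE, HSPH, HSP90, DNAJA, DNAJB or DNAJC, plus CRYAB, and leaving out HSPBP1 and HSPBAP1, whose symbols match by spelling. This gave 65 genes of the 25880 in the table. They fell into 7 small heat shock proteins, 9 HSP70s, 3 HSP110s, 3 HSP90s, 2 mitochondrial chaperonin genes, 4 DNAJA, 11 DNAJB and 26 DNAJC proteins. The RNA came from domestic pigs of the breed Northeast min pig at 60 days of age, with no treatment labelled, and the series was made for pig gene annotation. Heart, psoas major, longissimus dorsi, subcutaneous adipose, lung, spleen, liver, kidney and ovary each gave 1 library, and 1 further library pooled RNA of muscle, ovary, kidney, lung, spleen, liver and heart. The number of animals was not stated. With 1 library per tissue no value has an error, and differences could not be checked in replicates or given a p-value. A difference named below is a difference between those libraries.

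Heat shock proteins are molecular chaperones, which bind unfolded protein and help it to fold, refold or be degraded. HSP70 works in cycles of ATP hydrolysis that J-domain proteins start and exchange factors such as HSP110 end. HSP90 takes over partly folded clients, the chaperonin HSP60 with its lid HSP10 encloses them inside mitochondria, and small heat shock proteins hold unfolded protein without using ATP. Many of these genes are switched on by heat and by other stress, whereas others are made at all times. The roles given here are known mostly from human, mouse and cultured cells. In muscle, small heat shock proteins are known for binding to the sarcomere and to other parts of the cytoskeleton.

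Levels are given in FPKM, fragments scaled to transcript length and to library size, so that genes can be compared with each other per length. The FPKM of a library summed to between 292495 and 369254, and no read totals came with the table, so the depth behind each value is unknown. The labels held against the markers: of 33 tissue markers matched, 33 were highest in their own tissue, for example TNNT2 at 9493 FPKM in heart and UMOD at 2481 FPKM in kidney. In bulk tissue, fewer cells of a type and less RNA per cell cannot be told apart.

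Of the 65 genes, 60 reached 1 FPKM in at least 1 of the 9 tissues, 48 reached 10 FPKM, against 59.1% of all 15637 detected genes, and 12 reached 100 FPKM, against 8.6%. The 5 that stayed below 1 FPKM were HSPB3, HSPB9, DNAJB3, DNAJC5B and DNAJC28, the last of which was listed at 0 in all 9. Of the 60, 45 were at 1 FPKM or more in every tissue, where 49% of all detected genes were. The share of a tissue's summed FPKM held by the 65 genes was 1.19% in ovary, 1.13% in heart, 1.08% in psoas major, 0.975% in kidney, 0.909% in spleen, 0.891% in lung, 0.677% in liver, 0.600% in adipose and 0.541% in longissimus dorsi.

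The order of tissues given for a gene is that of the deposited FPKM. The libraries were also scaled to each other by the median of gene ratios. The highest tissue was the same both ways for 28 of the 60 detected members, and the lowest for 21 of the 45 found in every tissue.

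Which families made up that share differed by tissue. In heart the 7 small heat shock proteins summed to 1667 FPKM, above the 600.0 FPKM of the 9 HSP70s and the 524 FPKM of the 3 HSP90s. Ovary had the reverse order, with 1539.7 FPKM of HSP90, 797 FPKM of HSP70 and 114 FPKM of small heat shock proteins. Liver and kidney held the highest sums of the chaperonin pair, 501 and 509 FPKM, and lung the lowest, 189 FPKM. After scaling the chaperonin sum was still lowest in lung, and was highest in liver and psoas major. Of the J-domain proteins, the 26 DNAJC genes summed to between 262 and 451 FPKM in a tissue and the 11 DNAJB genes to between 101 and 181 FPKM.

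**Figure D1:**
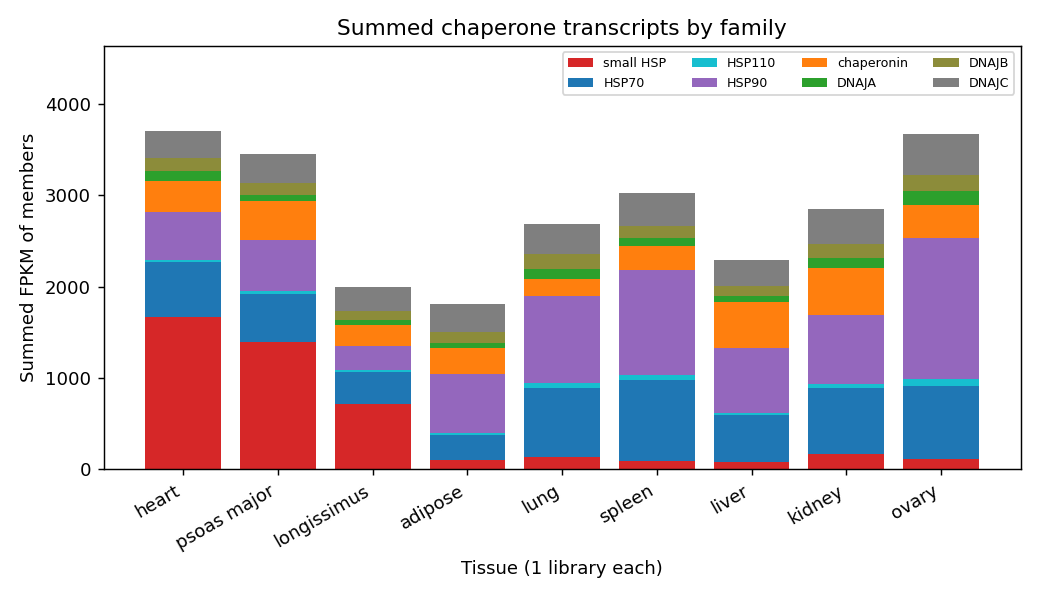
Summed FPKM of each chaperone family (stacked colours, vertical axis in FPKM) in each of the 9 tissues (horizontal axis), 1 library per tissue and no error bars. The small heat shock proteins fill 1667 FPKM of the heart bar and 77.4 FPKM of the liver bar.

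**Figure D2:**
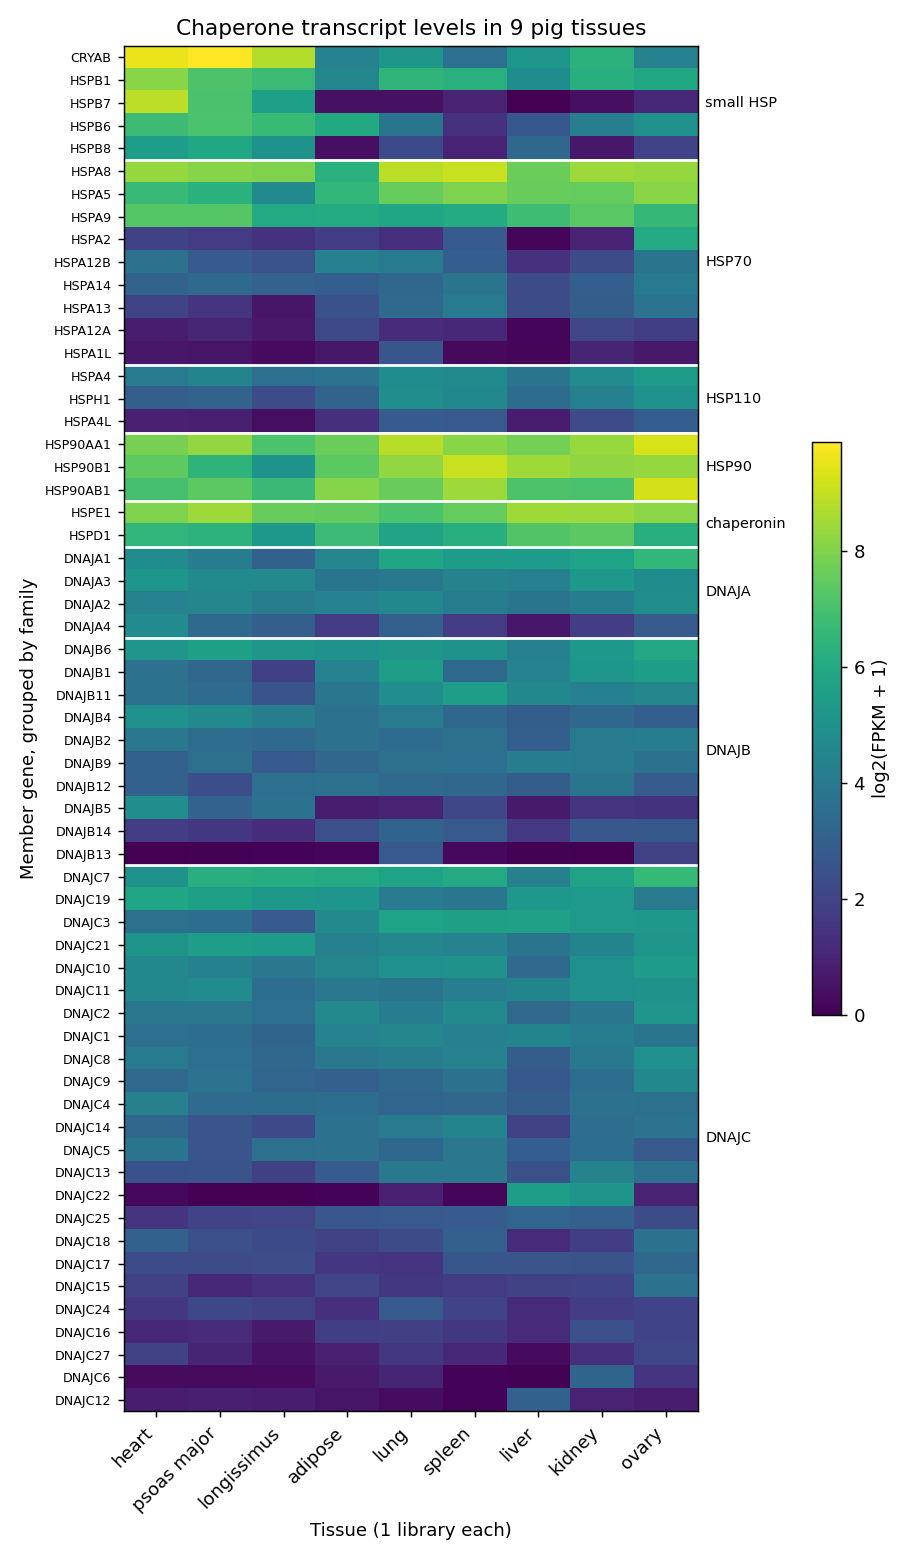
Level of each of the 60 detected members (rows, grouped by family) in each of the 9 tissues (columns), as log2(FPKM + 1), 1 library per tissue. Lighter colours are higher: CRYAB is brightest in heart, psoas major and longissimus dorsi, and HSPA8 and the HSP90s are bright in most tissues.

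The small heat shock proteins were the family whose summed level ranged most between tissues, from 77.4 FPKM in liver to 1667 FPKM in heart. By the rule used for striated muscle, the lowest of heart, psoas major and longissimus dorsi had to be at least 2-fold above the highest of the other 6 tissues, with 1 FPKM added to each value. CRYAB, HSPB7 and HSPB8 met it, 3 of the 60 detected members, against 1.38% of all detected genes. The opposite pattern was met by 0 of the 60, against 0.684% of all detected genes.

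CRYAB, the alpha B crystallin of lens and muscle, stood at 762 FPKM in heart, 938 FPKM in psoas major and 426 FPKM in longissimus dorsi. Its level was 80.2 FPKM in kidney, 36.2 in lung, 35.6 in liver, 19.7 in adipose, 19.6 in ovary and 11.2 in spleen. As the rule requires, the 3 muscle libraries did not overlap with the rest, and the lowest of them was 5.26-fold above kidney on the FPKM + 1 scale.

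HSPB7, known as the cardiovascular heat shock protein, was at 476 FPKM in heart, 131 in psoas major and 47.3 in longissimus dorsi. It was at 1.18 FPKM in ovary, 0.941 in spleen, 0.364 in lung, 0.356 in adipose and 0.322 in kidney, and was listed at 0 in liver. Heart was 5.3-fold above the mean of the skeletal muscles, the next class. HSPB7 was also the member that differed most between tissues. The gene lies on chromosome 6 from 75170441 to 75174920 on the minus strand of Sscrofa11.1.

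HSPB8, which works with the cochaperone BAG3 in removing damaged protein, was lower: 43.8 FPKM in heart, 58.9 in psoas major and 32.4 in longissimus dorsi. Liver held 8.97 FPKM, lung 3.66, ovary 2.92, spleen 0.911, kidney 0.575 and adipose 0.308. BAG3 itself stood at 14.3 FPKM in heart, 25.2 in psoas major, 19.4 in longissimus dorsi, 22.6 in adipose, 11.6 in lung, 5.56 in spleen, 17.4 in liver, 28.3 in kidney and 5.04 in ovary. BAG3 therefore did not separate muscle from the other tissues as HSPB8 did.

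HSPB1, the HSP27 that binds actin filaments, was at 277 FPKM in heart, 136 in psoas major and 106 in longissimus dorsi. The other tissues lay at 87.4 FPKM in lung, 75.1 in spleen, 74.7 in kidney, 58.3 in ovary, 27.1 in liver and 22.0 in adipose. The striated muscles were again the top 3, but the lowest of them was 1.22-fold above lung. After scaling, HSPB1 met the striated muscle rule, as did HSPB6, DNAJA4, DNAJB4 and DNAJB5, making 8 members against 2.65% of all genes.

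HSPB6, the HSP20 of smooth and striated muscle, was at 107 FPKM in heart, 134 in psoas major and 99.8 in longissimus dorsi. Adipose came next with 63.0 FPKM, then ovary with 31.2, kidney with 17.7, lung with 13.3, liver with 5.66 and spleen with 1.68. Adipose thus sat 1.57-fold below the lowest striated muscle. The 5 skeletal muscle markers summed to 27.7 FPKM in adipose, 20382 in psoas major and 32006 in longissimus dorsi, and their part in the adipose value was not tested.

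**Figure D3:**
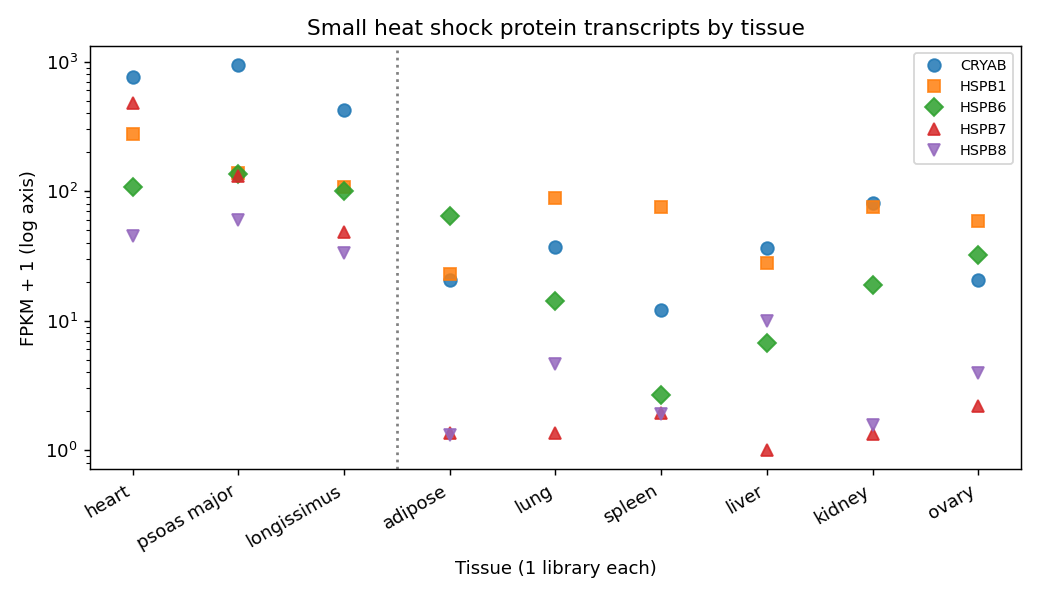
FPKM of the 5 detected small heat shock proteins in each of the 9 tissues, on a log axis of FPKM + 1, with 1 point per library and a dotted line between the striated muscles and the other tissues. Heart, psoas major and longissimus dorsi hold the top 3 values of all 5 genes, an order the striated muscle rule requires of CRYAB, HSPB7 and HSPB8. The share of all genes with that order was not computed. HSPB6 in adipose, at 63.0 FPKM, is the nearest of the other tissues for that gene.

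Across the 9 tissues the 5 genes ranked alike, with a median Spearman correlation of 0.725 over their 10 pairs (range 0.5 to 0.817), against 0.183 over the 1770 pairs of all 60 detected members. These and the correlations below are descriptions over 9 libraries that all pairs share. They rest on the deposited FPKM, and the order of tissues can change with scaling. HSPB3, a muscle member of the family, and HSPB9, a testis member, stayed at or below 0.0266 and 0.35 FPKM in the 9 tissues.

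Several of these genes overlap other rows of the table, and the sources used here do not say whether the counting used strand, so reads of overlapping genes cannot be told apart. CRYAB (chromosome 9, 39638506 to 39643530, minus strand) lies wholly inside an unnamed row on the plus strand. RefSeq places HSPB2, a family gene not analysed here, at 39640117 to 39644104, overlapping CRYAB and inside that unnamed row. That row stood at 87.6 FPKM in heart, 78.8 in psoas major, 32.7 in longissimus dorsi and between 3.96 and 15.0 in the other 6 tissues. HSPB6 (chromosome 6, 45178564 to 45183998, minus strand) shares 99.2% of its span with LIN37 on the plus strand, a subunit of the DREAM complex that represses cell cycle genes. The LIN37 level was 112 FPKM in heart, 134 in psoas major, 94.3 in longissimus dorsi, 65.3 in adipose and 34.7 in ovary, within 1.11-fold of HSPB6 in these 5 libraries. In spleen LIN37 was 9.39 times the HSPB6 level. HSPB1 shares 66.2% of its span with an unnamed row on the opposite strand. In all, 10 of the 65 members share at least 50% of their span with another row, and without them CRYAB drops out of the striated muscle count, which becomes 2.

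Among the HSP70s, the constitutive cytosolic HSPA8, which also uncoats clathrin vesicles, had the highest mean over the 9 tissues. It stood at 532 FPKM in spleen, 457 in lung, 342 in kidney, 318 in heart, 313 in ovary, 273 in psoas major, 251 in longissimus dorsi, 199.6 in liver and 78.8 in adipose. Adipose was the lowest tissue, also after scaling, and the tissue where HSPA5 was above HSPA8. The highest tissue changed: after scaling HSPA8 stood at 475 in longissimus dorsi, 397 in psoas major, 379 in spleen and 300.0 in lung. The other large HSP70s belonged to organelles and are described with them.

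HSPA2, the HSP70 of germ cells, was enriched in ovary. Its level was 64.9 FPKM there, 5.95 in spleen, 2.77 in heart, 2.43 in adipose, 2.33 in psoas major, 1.7 in longissimus dorsi, 1.61 in lung, 0.933 in kidney and 0.106 in liver. Ovary was 9.48-fold above spleen on the FPKM + 1 scale. The germ cell markers were highest in the same library, with ZP3 at 171 FPKM, DDX4 at 36.8 and DAZL at 2.78. Their summed level was 211 FPKM in ovary and at most 1.10 FPKM in the other 8, and their part in the HSPA2 value was not tested. The HSPA2 gene is on chromosome 7, from 88607555 to 88609464.

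With HSPB7 in heart, HSPA2 in ovary was 1 of 2 members enriched in a tissue class by the 5-fold rule, which compares 8 classes with the skeletal muscles averaged. The rule took 6.49% of all detected genes. After scaling it again took 2 members, against 6.77%, but these were HSPA2 and DNAJC12: heart was then 3.94-fold above the next class for HSPB7. At 2-fold, 9 of the 60 members were led by 1 class, against 24.6% of all detected genes. Heart led with DNAJA4, DNAJB5, HSPB1 and HSPB7, ovary with HSPA2 and DNAJC15, liver with DNAJC12, kidney with DNAJC6 and lung with HSPA1L. After scaling 11 members were led by 1 class, against 24.7%, and 6 of the 9 were among them. DNAJB5, HSPB1 and DNAJC15 were not.

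HSPA1L, a testis-rich HSP70, was low: 5.17 FPKM in lung, 1.01 in kidney and between 0.128 and 0.579 in the other 7. Its neighbour on chromosome 7, from 23915072 to 23929754, is named HSP70.2. RefSeq places HSP70.2 inside that row, at 23925929 to 23927854, with the synonyms HSPA1A and HSPA1B, the heat-inducible HSP70. That symbol falls outside the spelling used to choose members. HSP70.2 stood at 35.8 FPKM in ovary, 26.3 in lung, 26.3 in kidney, 20.8 in psoas major, 16.5 in adipose, 14.2 in heart, 9.50 in spleen, 9.38 in liver and 8.10 in longissimus dorsi. The RefSeq span of HSPA1L, from 23909960 to 23938678, covers the HSP70.2 row, so how the counting split reads between HSPA1L and HSP70.2 is uncertain.

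The immediate early genes, which rise within minutes of many stimuli, were looked at beside the inducible chaperones. Of 12 listed, 10 were detected and 9 of these were highest in lung, against 14.9% of all detected genes. JUN stood at 133 FPKM there, FOS at 105 and EGR1 at 100.1. The other detected gene, IER3, was highest in kidney at 7.60 FPKM. Lung was also high for DNAJB1, the main heat-inducible HSP40, and for HSPH1. DNAJB1 stood at 45.7 FPKM in ovary, 43.7 in lung, 35.3 in kidney, 20.1 in adipose, 19.8 in liver, 12.4 in heart, 9.73 in spleen, 8.53 in psoas major and 2.7 in longissimus dorsi. In ovary and kidney FOS was at 5.43 and 1.75 FPKM, JUN at 57.2 and 16.7, and EGR1 at 23.0 and 3.86. After scaling DNAJB1 was highest in liver at 35.5, with 29.1 in kidney, 28.7 in lung and 28.3 in ovary. The part of the immediate early genes in the chaperone levels was not tested.

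HSPA12B, a distant HSP70 relative known from endothelium, was highest in adipose at 18.7 FPKM and lowest in liver at 1.63. Between them lay lung at 15.9, ovary at 13.0, heart at 11.8, spleen at 6.81, psoas major at 6.2, longissimus dorsi at 4.81 and kidney at 3.91. HSPA12A, its paralogue, did not pass 3.54 FPKM in a single tissue. HSPA14, which sits with the J-domain protein DNAJC2 on the ribosome, was even: 16.3 FPKM in ovary, 12.9 in spleen, 9.35 in psoas major, 8.71 in lung, 7.9 in heart, 7.55 in longissimus dorsi, 6.83 in kidney, 6.66 in adipose and 3.87 in liver.

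The 3 HSP110s, which release ADP from HSP70, were all highest in ovary and all lowest in longissimus dorsi as deposited. After scaling HSPA4 was highest in psoas major and lowest in adipose, HSPA4L was highest in lung, and HSPH1 kept both tissues. HSPA4 was at 40.7 FPKM in ovary, 27.2 in lung, 26.4 in kidney, 24.4 in spleen, 21.2 in psoas major, 15.8 in heart, 13.1 in liver, 12.6 in adipose and 11.2 in longissimus dorsi. HSPH1 was at 32.6 FPKM in ovary, 27.3 in lung, 23.5 in spleen, 19.4 in kidney, 10.3 in liver, 7.91 in adipose, 7.9 in psoas major, 6.85 in heart and 3.72 in longissimus dorsi. HSPA4L had the same top tissues at lower levels, 6.64 FPKM in ovary, 6.41 in lung and 5.8 in spleen, against 0.29 in longissimus dorsi.

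The cytosolic HSP90s were also highest in ovary as deposited. After scaling this held for HSP90AB1, whereas HSP90AA1 stood at 446 in psoas major, 400.1 in liver and 381 in ovary. HSP90AA1, the stress-inducible form, stood at 617 FPKM in ovary, 447 in lung, 325 in kidney, 306 in psoas major, 277 in spleen, 229 in heart, 223 in liver, 201 in adipose and 135 in longissimus dorsi. HSP90AB1, the constitutive form, stood at 607 FPKM in ovary, 343 in spleen, 273 in adipose, 189 in lung, 166 in psoas major, 139 in liver, 130.4 in kidney, 123 in heart and 100.4 in longissimus dorsi. The balance of the pair therefore differed between libraries. HSP90AA1 was 2.49 times HSP90AB1 in kidney, 2.36 times in lung, 1.87 times in heart, 1.84 times in psoas major, 1.6 times in liver, 1.35 times in longissimus dorsi and 1.02 times in ovary. In spleen and adipose the constitutive form was the higher one, with ratios of 0.806 and 0.734. Such a ratio is taken within a library and does not move with library scaling.

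As deposited, the order of tissues for HSP90AA1 was close to that for HSPA4, with a Spearman correlation of 0.983 over the 9 libraries. This pair is named because it was the highest of the 1770 member pairs. Of 14 HSP90 partners, 9 were even by the rule below, which took 21.8% of all detected genes, and 2 met the striated muscle rule, which took 1.38%. UNC45B, which folds myosin with HSP90, was at 24.5 FPKM in heart, 37.1 in psoas major, 27.2 in longissimus dorsi and at most 1.16 elsewhere. SMYD1, a methyltransferase that works with it in the sarcomere, was at 25.6, 19.3 and 16.3 FPKM in the same order and at most 0.134 elsewhere. HSP90AA1 and HSP90AB1 themselves did not meet that rule.

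In the endoplasmic reticulum, 12 detected members act on secreted and membrane proteins. Their summed level was 993 FPKM in spleen, 770.1 in ovary, 694 in lung, 677 in liver, 647 in kidney, 384 in adipose, 369 in heart, 244 in psoas major and 117 in longissimus dorsi. The muscles and adipose thus lay below the 5 other tissues. After scaling of the libraries liver was the highest at 1214 and longissimus dorsi still the lowest at 222.

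HSPA5, the BiP that binds nascent chains in the lumen, stood at 278 FPKM in ovary, 251 in spleen, 192 in lung, 191 in liver, 187 in kidney, 102 in heart, 92.9 in adipose, 78.6 in psoas major and 25.2 in longissimus dorsi. HSP90B1, the GRP94 that folds integrins and Toll-like receptors, stood at 530.4 FPKM in spleen, 349.8 in liver, 316 in ovary, 312 in lung, 302 in kidney, 173 in heart, 167 in adipose, 85.6 in psoas major and 32.7 in longissimus dorsi. Both were lowest in longissimus dorsi, by 10.6-fold and 15.8-fold from the highest tissue on the FPKM + 1 scale. After scaling HSPA5 and HSP90B1 were highest in liver, at 343 and 627, and still lowest in longissimus dorsi. An unnamed row inside the RefSeq span of HSP90B1 on chromosome 5, from 80521815 to 80531021, held 0.603 to 0.761 times the HSP90B1 level in each of the 9 libraries, and how the counting split reads between them is uncertain.

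DNAJB11, the ERdj3 cochaperone of BiP, had nearly the tissue order of HSP90B1, with a Spearman correlation of 0.933. It was at 43.8 FPKM in spleen, 27.5 in lung, 23.4 in liver, 21.7 in ovary, 19.3 in kidney, 13.7 in adipose, 11.9 in heart, 9.89 in psoas major and 4.88 in longissimus dorsi. DNAJC3, known as P58IPK, was at 51.9 FPKM in lung, 48.9 in liver, 47.9 in spleen, 38.3 in kidney, 37.4 in ovary, 24.1 in adipose, 11.6 in heart, 10.9 in psoas major and 6.22 in longissimus dorsi. DNAJC10, a disulfide reductase known as ERdj5, did not share the liver level: it was at 42.0 FPKM in ovary, 32.6 in spleen, 30.2 in kidney, 29.8 in lung, 23.5 in heart, 22.3 in adipose, 19.5 in psoas major, 13.9 in longissimus dorsi and 9.25 in liver. HSPA13 was lower, from 15.5 FPKM in spleen to 0.529 in longissimus dorsi. After scaling DNAJB11 and DNAJC3 were highest in liver, at 42.0 and 87.6, whereas DNAJC10 was still lowest there.

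The other genes of the folding machinery of this compartment were looked at as a list. Of 10 listed, 4 were highest in spleen, against 18.9% of all detected genes, and 3 in ovary, against 28.7%. Liver was highest for 2, against 5.6%, and kidney for 1, against 12.8%. These counts are of the deposited FPKM and were not remade after scaling. Across all genes, scaling took the share highest in liver from 5.6% to 15.9%, so the tissue order of this list may change. CALR, a lectin chaperone, stood at 406 FPKM in ovary, 371 in spleen, 325 in liver, 284 in kidney, 279 in lung, 199 in adipose, 127 in heart, 74.9 in psoas major and 43.0 in longissimus dorsi. PDIA4, a disulfide isomerase, peaked in spleen at 189.9 FPKM, and P4HB, a disulfide isomerase and subunit of prolyl hydroxylase, in liver at 700.1 FPKM.

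**Figure D4:**
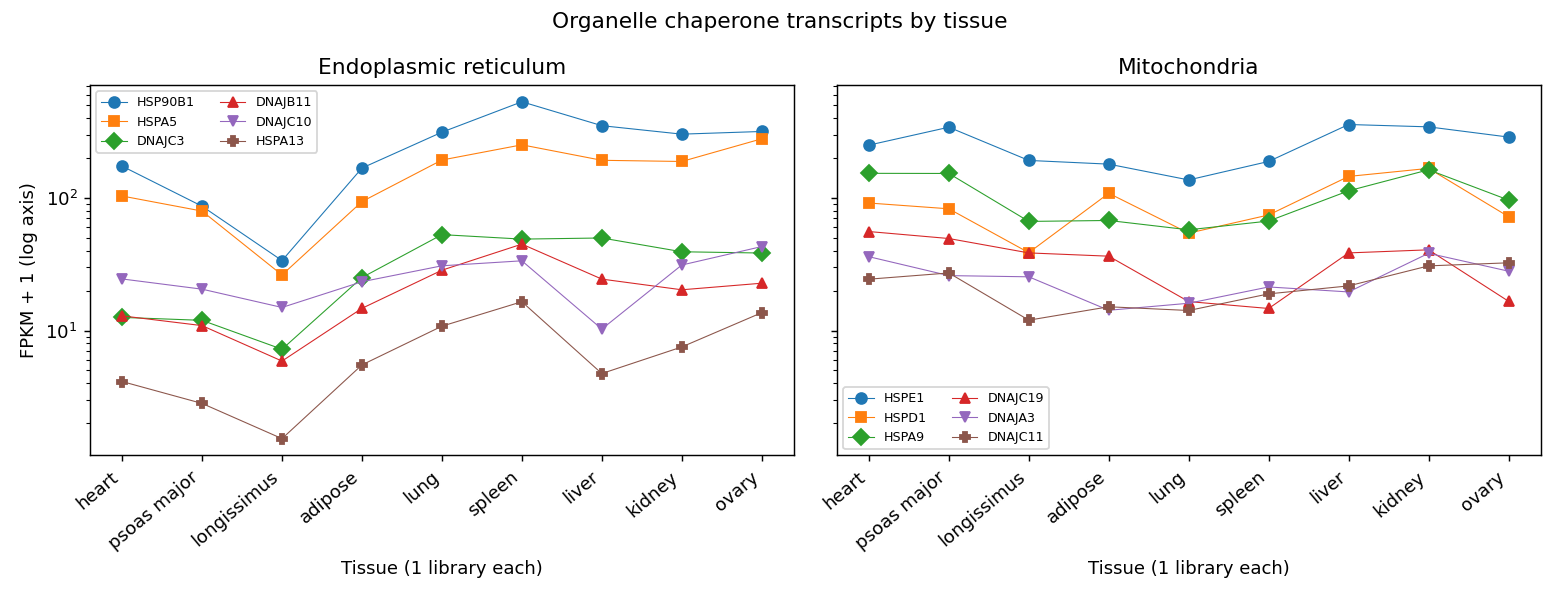
FPKM of the main chaperones of the endoplasmic reticulum and of mitochondria in each of the 9 tissues, as FPKM + 1 on a log axis, 1 library per tissue, where lines only join the points of a gene and the tissues have no order. HSPA5 and HSP90B1 drop to 25.2 and 32.7 FPKM in longissimus dorsi, and HSPD1 is highest in kidney at 166 FPKM.

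In mitochondria, 7 members summed to 780.4 FPKM in kidney, 693 in liver, 675 in psoas major, 608 in heart, 539 in ovary, 419 in adipose, 381 in spleen, 369 in longissimus dorsi and 291 in lung. After scaling the highest was liver at 1242 and the lowest lung at 191. The median log2 difference of lung from the mean of the other 8 tissues was -0.72 for these 7 and 0.40 for all detected genes, or -1.43 and -0.10 after scaling. Lung was below that mean for 7 of the 7 both ways. Of all 15637 detected genes, it was below for 4733 as deposited and for 8798 after scaling.

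HSPD1, the HSP60 that forms the folding barrel, stood at 166 FPKM in kidney, 144 in liver, 107 in adipose, 90.6 in heart, 81.8 in psoas major, 73.4 in spleen, 71.3 in ovary, 53.2 in lung and 37.7 in longissimus dorsi. HSPE1, its HSP10 lid, stood at 357 FPKM in liver, 343 in kidney, 341 in psoas major, 287 in ovary, 249 in heart, 191 in longissimus dorsi, 187 in spleen, 179 in adipose and 136 in lung. The genes lie head to head on chromosome 15, with HSPD1 on the minus strand from 101321360 to 101373878 and HSPE1 on the plus strand from 101373976 to 101376144, 97 bases apart. HSPE1 was above HSPD1 in every library, by 5.07 times in longissimus dorsi, 4.16 in psoas major, 4.03 in ovary, 2.75 in heart, 2.55 in lung and in spleen, 2.47 in liver, 2.06 in kidney and 1.66 in adipose. Over the 9 tissues their Spearman correlation was 0.567. The HSPD1 row shares 31.5% of its span with an unnamed row on the same strand, at 33.5 FPKM in liver to 138 in spleen. It also holds the whole of COQ10B on the opposite strand, while RefSeq places HSPD1 at 101360355 to 101373498. How the counting split reads between these rows is uncertain.

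HSPA9, the mitochondrial HSP70 or mortalin, was at 162 FPKM in kidney, 152 in heart and in psoas major, 112 in liver, 95.4 in ovary, 66.6 in adipose, 66.0 in spleen, 65.5 in longissimus dorsi and 56.5 in lung. DNAJC19, a J-domain protein of the inner membrane import motor, was highest in heart as deposited and in longissimus dorsi after scaling: 54.8 FPKM in heart, 48.4 in psoas major, 39.6 in kidney, 37.5 in longissimus dorsi and in liver, 35.4 in adipose, 15.6 in ovary, 15.5 in lung and 13.7 in spleen. DNAJC15, its import motor relative, had another pattern, with 11.9 FPKM in ovary and between 1.12 and 3.18 in the other 8. DNAJA3, which works with mortalin, was at 37.2 FPKM in kidney, 35.0 in heart, 27.0 in ovary, 24.9 in psoas major, 24.4 in longissimus dorsi, 20.3 in spleen, 18.5 in liver, 15.1 in lung and 13.2 in adipose. DNAJC11, linked to the cristae of the inner membrane, was at 31.4 FPKM in ovary, 29.7 in kidney, 26.2 in psoas major, 23.4 in heart, 20.7 in liver, 17.9 in spleen, 14.1 in adipose, 13.2 in lung and 11.0 in longissimus dorsi.

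The cytosolic and nuclear J-domain proteins, which deliver clients to HSP70, held the most even members and some with strong tissue preferences. DNAJA1, the abundant HSP40 of type A, stood at 90.8 FPKM in ovary, 54.9 in lung, 52.4 in kidney, 43.4 in spleen, 42.2 in liver, 26.1 in heart, 21.7 in adipose, 17.2 in psoas major and 7.34 in longissimus dorsi. DNAJA2, its close relative, had the smallest ratio of highest to lowest tissue of all detected members as deposited: 28.6 FPKM in ovary, 23.5 in lung, 21.7 in psoas major, 20.1 in heart, 19.9 in adipose, 17.3 in kidney, 16.9 in longissimus dorsi, 16.6 in spleen and 13.4 in liver. DNAJA4 was instead led by heart, at 26.5 FPKM, with 9.75 in psoas major, 7.17 in lung, 6.96 in longissimus dorsi, 6.07 in ovary, 2.45 in kidney, 2.36 in adipose, 2.31 in spleen and 0.543 in liver. The 3 relatives thus had 3 different tissue patterns.

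DNAJB5 and DNAJB4, type B relatives of DNAJB1, were highest in heart as deposited, and after scaling DNAJB4 was highest in psoas major. DNAJB5 stood at 27.9 FPKM in heart, 12.2 in longissimus dorsi, 7.51 in psoas major, 3.29 in spleen, 1.87 in kidney, 1.74 in ovary, 0.995 in lung, 0.69 in adipose and 0.652 in liver. DNAJB4 stood at 30.1 FPKM in heart, 25.4 in psoas major, 16.6 in longissimus dorsi, 15.5 in lung, 11.9 in adipose, 8.86 in kidney, 8.78 in spleen, 6.7 in ovary and 6.63 in liver. DNAJB6, which keeps aggregation-prone proteins soluble and is linked to limb-girdle muscular dystrophy, was not set apart in muscle as deposited: 61.3 FPKM in ovary, 48.1 in psoas major, 37.6 in kidney, 36.1 in lung, 36.0 in longissimus dorsi, 34.1 in heart, 32.3 in spleen, 31.1 in adipose and 18.5 in liver. After scaling DNAJB6 stood at 70.1 in psoas major, 68.2 in longissimus dorsi and 39.7 in heart. The next tissue was then ovary at 37.9.

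DNAJC7, which binds HSP70 and HSP90 together, had the highest mean over the 9 tissues of the DNAJC proteins, and was lower in heart than in the skeletal muscles. Its level was 96.3 FPKM in ovary, 73.6 in psoas major, 67.8 in longissimus dorsi, 64.9 in adipose and in spleen, 51.7 in lung, 50.5 in kidney, 31.4 in heart and 18.9 in liver. The highest DNAJC gene was DNAJC19 in heart and DNAJC3 in lung and in liver. DNAJC21, a factor in ribosome maturation, was at 44.6 FPKM in psoas major, 43.3 in longissimus dorsi, 36.2 in ovary, 33.4 in heart, 22.9 in lung, 20.9 in kidney, 19.8 in spleen, 19.4 in adipose and 13.1 in liver.

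A few low members had sharp preferences. DNAJC22 stood at 45.4 FPKM in liver and 33.4 in kidney, and at most 0.971 in the other 7, with psoas major and longissimus dorsi listed at 0. DNAJC12, the cochaperone of the aromatic amino acid hydroxylases, was at 7.27 FPKM in liver and between 0.0743 and 0.954 elsewhere, 4.23-fold above the next class. DNAJC6, the auxilin that uncoats clathrin vesicles with HSPA8, was at 8.1 FPKM in kidney, 1.84 in ovary, 1.01 in lung and at most 0.653 elsewhere. DNAJB13, a protein of the axonemal radial spoke, was at 5.68 FPKM in lung, 2.84 in ovary and at most 0.145 elsewhere. Of 4 motile cilia markers, 3 were highest in lung, with FOXJ1 at 24.2 FPKM there, 3.05 in ovary and 2.19 in kidney. The other, DNAI1, was highest in longissimus dorsi at 38.8 FPKM, with 14.3 in psoas major and 8.18 in lung. The part of these markers in the DNAJB13 value was not tested.

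By the rule for even expression, at least 1 FPKM in all 9 tissues and a highest value at most 4-fold the lowest, 22 of the 60 members were even, against 21.8% of all detected genes. Of these, 18 were J-domain proteins, with 11 DNAJC, 5 DNAJB and 2 DNAJA genes, and the others were HSPA4, HSPA9, HSPA14 and HSPE1. The HSP90s and the small heat shock proteins gave 0. Scaling also gave 22, against 33.5% of all genes, but 11 of the members were in both counts, among them DNAJA2, DNAJB6, HSPA4 and HSPA14.

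The remaining even genes that reached 10 FPKM were of middle level. DNAJB2, a neuronal J-domain protein that binds ubiquitin, ranged from 6.78 FPKM in liver to 16.7 in ovary. DNAJB9, the ERdj4 that represses the stress sensor IRE1, ranged from 5.93 in longissimus dorsi to 17.4 in liver, and DNAJC1, an ER membrane protein, from 7.99 in longissimus dorsi to 21.5 in lung. DNAJB12, which sorts membrane proteins for degradation, ranged from 4.22 FPKM in psoas major to 12.8 in kidney. DNAJC5, the cysteine string protein of secretory vesicles, ranged from 5.15 in psoas major to 14.1 in spleen. DNAJC2, the ribosome partner of HSPA14, ranged from 9.79 in liver to 34.6 in ovary, DNAJC9, a histone chaperone, from 5.51 to 23.4 in the same tissues, and DNAJC4 from 6.62 in liver to 18.5 in heart.

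The tissue holding the highest value was compared with all genes. Ovary was highest for 23 of the 60 members, against 28.7% of all detected genes, heart for 7 against 6.52%, kidney for 7 against 12.8%, lung for 6 against 14.9%, spleen for 6 against 18.9%, liver for 5 against 5.6%, psoas major for 4 against 3.43%, adipose for 2 against 6.59% and longissimus dorsi for 0 against 2.53%. The lowest value lay in longissimus dorsi for 16 of the 45 members found in every tissue, against 37.6% of all such genes, and in liver for another 16, against 38.1%. The members' share was 38.3% for highest in ovary, and 35.6% for lowest in longissimus dorsi and for lowest in liver. Scaling of the libraries, by factors from 0.528 in longissimus dorsi to 1.62 in ovary, took the count highest in ovary from 23 to 5, against 15.8% of all genes. The count lowest in longissimus dorsi went from 16 to 9, against 9.16%, and that lowest in liver from 16 to 4, against 11.6%. In the scaled values liver was highest for 14 members against 15.9% of all genes, psoas major for 11 against 6.84% and longissimus dorsi for 11 against 12%.

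Heart was next compared with the skeletal muscles. A member counted as higher when it was at least 2-fold above each muscle. DNAJA4, DNAJB5, HSP90B1, HSPB1 and HSPB7 were higher in heart, 5 of 54 compared, against 11.1% of all genes compared. DNAJC7 was lower, 1 of 54 against 4.27%. The median log2 difference of heart from the mean of the muscles was 0.35 for the members and 0.39 for all genes. After scaling these became -0.04 and 0.00, and DNAJA4 and HSPB7 were the 2 still higher, against 6.56% of all genes, and 1 member was lower, against 6.95%. HSPB7 had a log2 difference of 2.58, HSP90B1 of 1.69, DNAJA4 of 1.57, DNAJB5 of 1.45, HSPB1 of 1.20 and DNAJC7 of -1.14.

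Last, the skeletal muscles were compared with each other. Psoas major was at least 2-fold above longissimus dorsi for 10 of the 54 members compared, against 4.66% of all genes compared. The 10 were HSPA5, HSPB7, DNAJB1, HSP90B1, HSPA9, DNAJC11, HSP90AA1, CRYAB, DNAJA1 and HSPD1. The log2 difference was 1.60 for HSPA5, 1.45 for HSPB7, 1.37 for DNAJB1 and 1.36 for HSP90B1, and between 1.10 and 1.20 for the other 6. They came from 7 of the 8 families and from cytosol, ER and mitochondria. Longissimus dorsi was higher for 2 of 54, DNAJB12 with a log2 difference of -1.24 and DNAJC5 with -1.02, against 2.09%.

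Part of that count moved with the scale of the libraries. The median log2 difference of psoas major from longissimus dorsi was 0.42 over the members and 0.27 over all genes, and 0.11 and -0.03 after scaling. Scaling left 3 of the 10 past 2-fold, DNAJB1, HSPA5 and HSPB7, against 2.77% of all genes, and longissimus dorsi was then higher for 3, against 4.78%. By family, the scaled median was 0.79 for the 3 HSP90s, 0.59 for the chaperonin pair, 0.58 for the 2 HSP110s compared and 0.48 for the 5 small heat shock proteins. It was 0.18 for the 8 HSP70s compared, 0.12 for 9 DNAJB, 0.04 for 4 DNAJA and -0.04 for 21 DNAJC proteins. Of the 5 fibre markers matched, the fast myosin MYH4 stood at 473 FPKM in psoas major and 1966 in longissimus dorsi, and ATP2A2, the calcium pump of slow and cardiac fibres, at 329 and 145 FPKM. The slow fibre genes differed less: TNNI1 stood at 528 and 414 FPKM, TNNT1 at 1176 and 1126, and MYL2 at 619.9 and 525. After scaling these 3 were lower in psoas major than in longissimus dorsi, while MYH4 and ATP2A2 kept their direction. The part of fibre type in the chaperone differences was not tested.

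**Figure D5:**
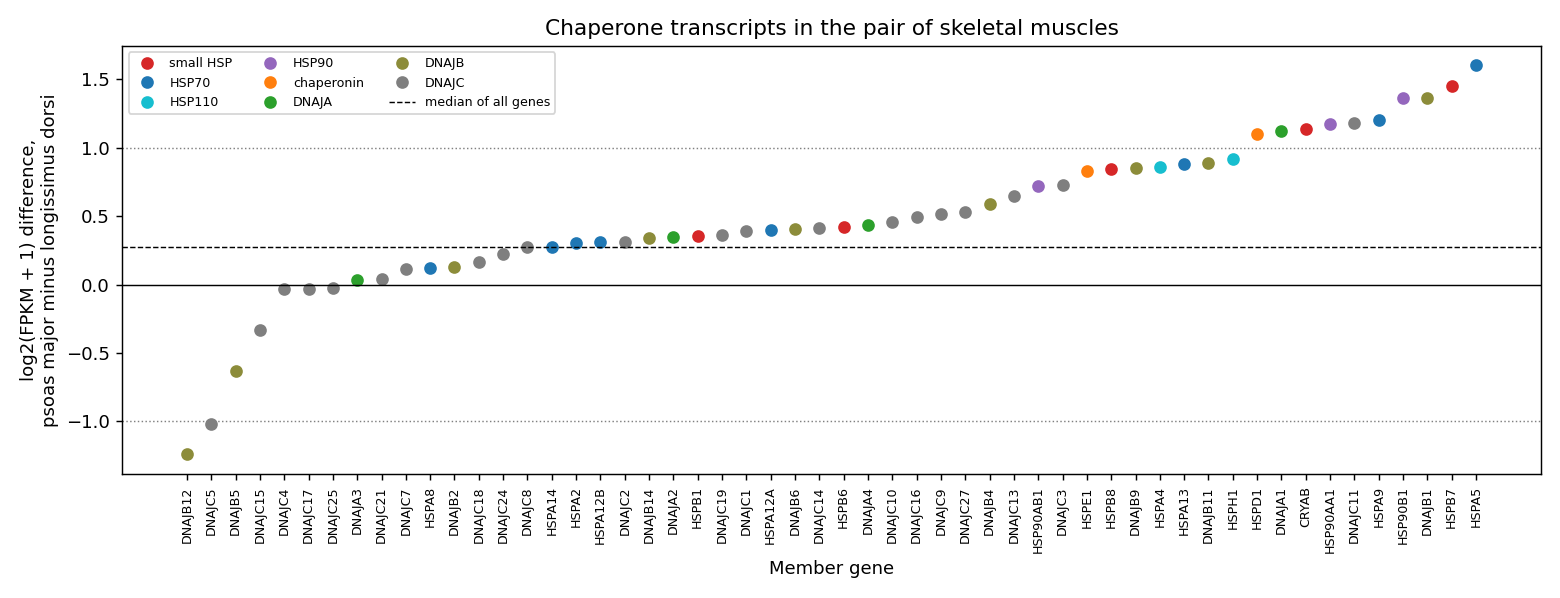
Difference of log2(FPKM + 1), psoas major minus longissimus dorsi (vertical axis), for the 54 members at 1 FPKM or more in either muscle (horizontal axis, in order of the difference, coloured by family), 1 library per muscle. Dotted lines mark a 2-fold difference and the dashed line the median of all genes, 0.27: 10 members lie above the upper dotted line, from HSPD1 to HSPA5, and DNAJB12 and DNAJC5 lie below the lower one.

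Of the regulators, HSF1, the main heat shock factor, stood at 22.1 FPKM in ovary, 15.5 in heart and in spleen, 14.1 in kidney, 13.1 in adipose, 12.8 in psoas major, 12.4 in lung, 11.8 in longissimus dorsi and 9.42 in liver. HSF4, a factor known from the lens, was at 25.0 FPKM in longissimus dorsi, 18.7 in psoas major, 11.3 in heart, 6.15 in ovary, 3.8 in adipose, 2.44 in lung, 2.04 in spleen, 0.808 in kidney and 0.653 in liver. Of 15 exchange factors and other HSP70 partners, 7 were even, against 21.8% of all detected genes, and 7 were highest in ovary, against 28.7%. The striated muscle rule was met by 0 of the 15, against 1.38%. Of the 8 subunits of the cytosolic chaperonin CCT, which folds actin and tubulin, 7 were even and 6 were highest in ovary, against the same shares. Psoas major was at least 2-fold above longissimus dorsi for 3 of the 8, against 4.66% of all genes compared. These list counts are of the deposited FPKM and were not remade after scaling. Across all genes, scaling took the share highest in ovary from 28.7% to 15.8%. Whether the ovary counts of the lists hold after scaling is therefore not shown.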

How the data were processed

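Total RNA was extracted with TRIzol and made into libraries with a TruSeq kit, per the labels' protocols. The authors deposited 1 table of 25880 genes in 10 libraries. Its header names no unit, and the deposited values were read as FPKM from their range and sums. Per the submitters' processing notes, StringTie 1.2.2, TopHat2 2.1.0 and the build Sscrofa11.1 were used. The role of each tool, the annotation release and the strandedness were not given in the sources used. No counts could be recovered, so no count test or counting interval was made.

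Gene names came from the Ensembl name table for 14857 genes and, for 3577 more, from the RefSeq gene that overlapped reciprocally best by at least 0.5 of the longer span. Of 12850 genes named both ways, 92.9% had equal names. HSPB7, HSPA2, DNAJC21 and DNAJB3 were named by overlap.

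Fold differences between tissues used FPKM + 1, and ratios of 1 row to another within a library used FPKM. A gene counted as detected at 1 FPKM in at least 1 of the 9 tissues. Counts of members called by a rule were set beside the share of all genes tested that the rule took. Scaled values were divided by median-of-ratios factors over 13425 genes above 0 in all 9 tissues. Members called by a rule, and the top 3 of each family by mean FPKM, were named where they reached 10 FPKM. The members and lists were chosen with earlier results of these data known. The rules were tested on simulated flat profiles with large planted changes. The simulated libraries had no shift of scale in that test, so it does not bear on the counts that moved with scaling. Python 3.11.15, numpy 2.4.6 and pandas 2.3.3 were used.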

Additional observations from a re-analysis of the deposited data

Results flagged for a closer look

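HSPB3, a small heat shock protein of muscle, stood at 1.52 FPKM in the library of mixed tissues, which entered no comparison. In the 9 single tissues it was at most 0.0266 FPKM, in lung, and it was listed at 0 in heart, psoas major and longissimus dorsi. The mixture is labelled as holding heart and muscle RNA, so its value lies above every tissue library of the table. It is a single library, and the difference was not tested.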

How the results depend on the processing

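No paired analysis was possible because each tissue had 1 library, and for the same reason no replicate could be left out. Of 69 alternative settings, 47 gave a count within 1.5 times the reported one and 22 did not. Percentages below are the share of all genes tested that the setting took. Median-of-ratios scaling moved the members higher in striated muscle from 3 to 8, against 2.65%. Those higher in psoas major went from 10 to 3, against 2.77%, and those higher in heart from 5 to 2, against 6.56%. With a pseudocount of 5 FPKM the count higher in heart was 2, against 4.79%, and that lower in heart 0, against 2.21%. The count higher in longissimus dorsi was then 0, against 0.732%. With 0.1 FPKM the count lower in striated muscle was 1, against 1.56%. At 1.5-fold the counts were 5 higher in striated muscle, against 2.06%, and 1 lower, against 2.35%. In psoas major 21 of 54 were higher, against 19.2%, and in heart 10 of 54, against 25.7%. At 3-fold they were 6 enriched, against 12.6%, 1 higher in psoas major, against 0.999%, and 0 higher in longissimus dorsi, against 0.647%. In heart 1 was higher, against 4.49%, and 0 lower, against 2.48%. At 10-fold 0 were enriched, against 3.21%, and with 9 classes in place of 8, 1 was, against 5.86%. A 3-fold range left 11 even members, against 10.9%. Scaling left the enriched count at 2, of which 1 was the same member, and 6 of the 9 led members. Scaling of the highest and lowest tissue, added after seeing the data, gave 5 highest in ovary, against 15.8%. It gave 9 lowest in longissimus dorsi, against 9.16%, and 4 lowest in liver, against 11.6%. The counts move with the threshold by its own construction; the cause of the shifts with scaling was not tested. Depth is unknown, so values near 1 FPKM have no stated precision.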

Other observations

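In the library of mixed tissues, 63 of the 65 members lay within the range of the 9 single tissues. HSPA12A was the other one above the highest tissue, at 3.98 FPKM against 3.54 FPKM in adipose, a tissue the label of the mixture does not name. CRYAB stood at 110.2 FPKM there, HSPB7 at 28.7 and HSPA2 at 2.56, while DNAJC22, high in liver and kidney, stood at 24.4. RefSeq lists 7 further genes of these families that match no member row by the overlap used here, namely HSPA6, HSPB2, HSPB11, DNAJB7, DNAJB8, DNAJC5G and DNAJC30, and they were not analysed here.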
